A study of Mus musculus with 6 samples.

Results

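The 34 genes described here encode lysosomal proteins: hydrolases outside the cathepsin family, most of them soluble, progranulin, the membrane enzyme Hgsnat, and membrane glycoproteins of the LAMP type. Most enzymes of sphingolipid breakdown were left out, although some that act on glycolipids, such as Gla, Hexa and Arsa, are in the set. The genes were chosen by symbol from the 46603 genes counted in each library, with earlier results of these data known. All 34 were found and passed the filter on low counts. The libraries hold bulk RNA of macrophages grown from the marrow of 7-week-old C57BL/6/J mice, in 2 groups of 3. In the first group the cells received medium conditioned by cancer cells with its lipids present, and in the second the same kind of medium without lipids. Cells of both groups had been grown in high-glucose medium with 10% fetal bovine serum and 20% L929-conditioned medium, a source of macrophage growth factor, were replated on day 6 at 800000 per well and were given the cancer cell medium 6 h later. No source used here says which cancer cells made the medium, how its lipids were taken out or how long the macrophages were exposed, and cells without any cancer cell medium were not analysed here.

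Lysosomes break down material that a cell takes in or recycles. Most of their hydrolases are glycoproteins made in the endoplasmic reticulum, tagged with mannose-6-phosphate and carried to the acid compartment. Many of them remove 1 kind of bond there and work in sequence with others. For many, loss of the single enzyme causes a storage disease in humans. LAMP proteins line the inner face of the lysosomal membrane with a dense coat of sugars. Macrophages, which engulf particles and lipoproteins, are rich in these proteins, and many of the genes carry E-boxes of the CLEAR type, bound by TFEB and related MiT/TFE transcription factors.

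Of the 34 genes, 16 were lower and 0 higher with lipids in the medium (edgeR's quasi-likelihood test, adjusted p under 0.05), while 18 did not pass the test. Across all 12767 tested genes, 6.87% were lower and 4.58% higher. The median log2 fold change, with lipids minus without, was -0.22 for the 34 genes and -0.0032 for all tested genes, and 28 of the 34 values were negative. DESeq2 called 17 members lower and 1 higher (Hgsnat), beside 7.54% and 5.32% of all genes, and limma-voom 15 and 0, beside 6.62% and 4.7%. At an unadjusted p under 0.05 in edgeR, 20 members were lower and 2 higher, Hgsnat and Arsb, beside 14.5% and 12.1% of all genes. The changes were modest: they ran between -0.77 for Naglu and 0.21 for Hgsnat. CPM did not overlap between the groups for 22 members that were lower and 3 that were higher, where 15.8% and 14.7% of all tested genes did so. The 34 genes took 1.64%, 1.66% and 1.67% of all counts in the libraries with lipids, against 1.78%, 1.85% and 1.91% in those without. Every library with lipids lay below every library without lipids in this share, which carries no TMM scaling.

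**Figure D1:**
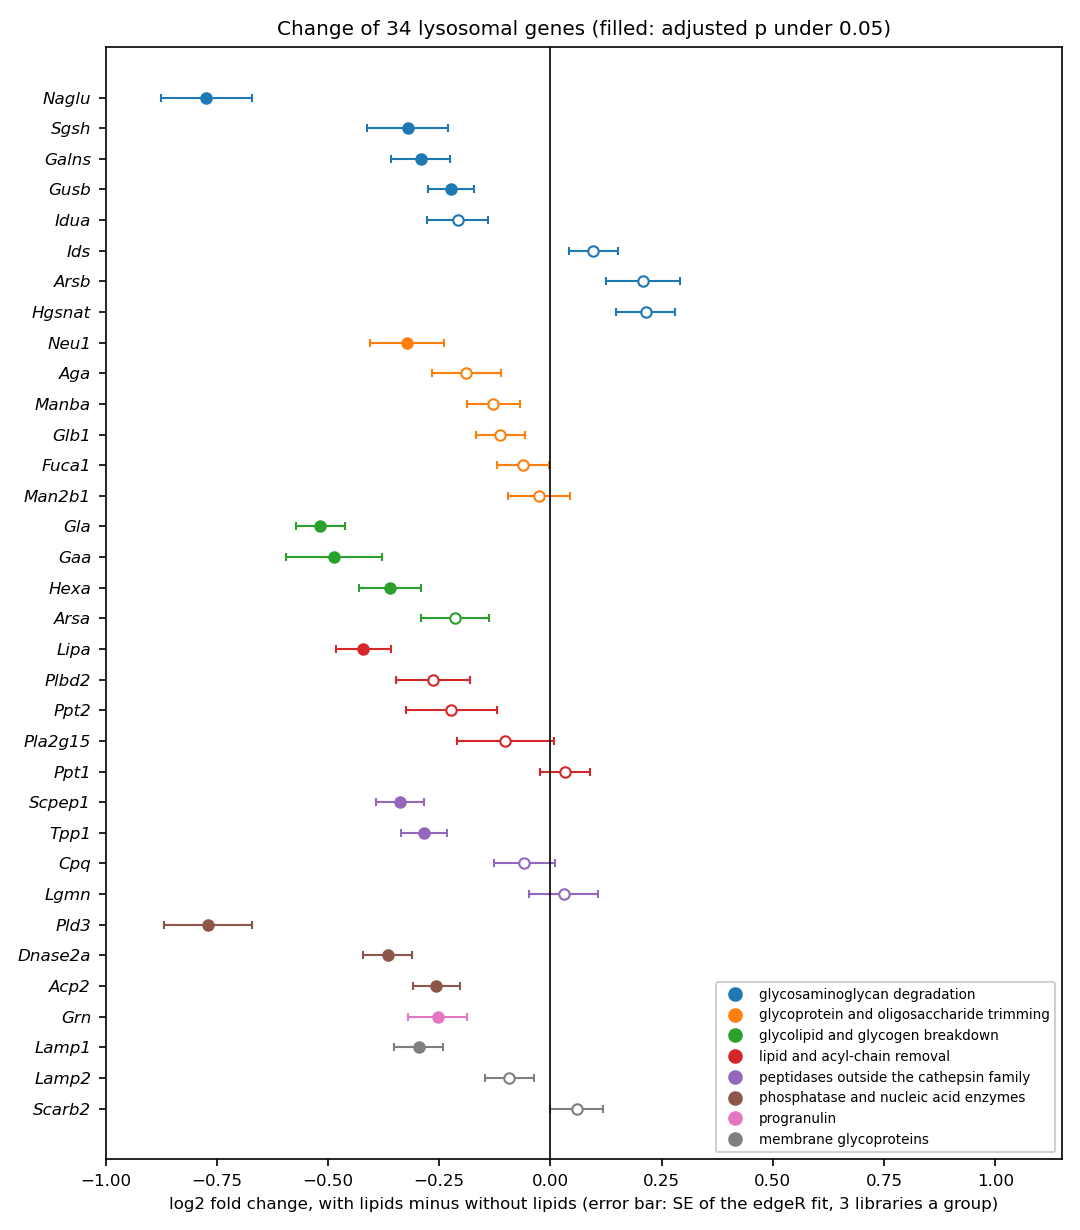
Log2 fold change of each of the 34 genes with its SE, grouped by role, where a filled point passed the test. The 16 filled points all lie below 0, Naglu at -0.77 and Pld3 at -0.77 farthest, and Hgsnat at 0.21 is the highest open point.

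Library 1 of the group without lipids stood apart from its replicates. It lay at -22.96 on the second principal component of all tested genes (21.8% of variance), where the other 5 libraries lay between -1.17 and 13.95. Among its group's 3 libraries it was the lowest for 23 of the 34 members. Left out, the count of members was 21 lower and 2 higher (Hgsnat and Arsb), beside 15.1% and 12% of all genes. Leaving out library 1, 2 or 3 with lipids gave 8, 8 and 9 members lower, beside 3.67%, 3.27% and 3.75% of all genes, and leaving out library 2 or 3 without lipids gave 10 and 13, beside 3.69% and 6.69%. In these 5 fits 0 members were higher, beside 2.03%, 1.69%, 1.87%, 1.87% and 5.01% of all genes in the same order. Naglu, Pld3, Gla, Lipa, Dnase2a and Scpep1 passed in all 6 of these fits. Scaled by library totals alone, which moved the median of all genes to 0.07, 11 members were lower and 2, Hgsnat and Arsb, were higher, beside 4.67% and 9.72% of all genes; the calls for Galns, Gusb, Sgsh, Neu1 and Grn were lost. Tested against a 1.2-fold change, 3 members were lower (Naglu, Pld3 and Gla) and 0 higher, beside 2.09% and 0.893% of all genes. At an adjusted p of 0.01 the counts were 9 and 0, beside 3.48% and 1.69%.

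**Figure D2:**
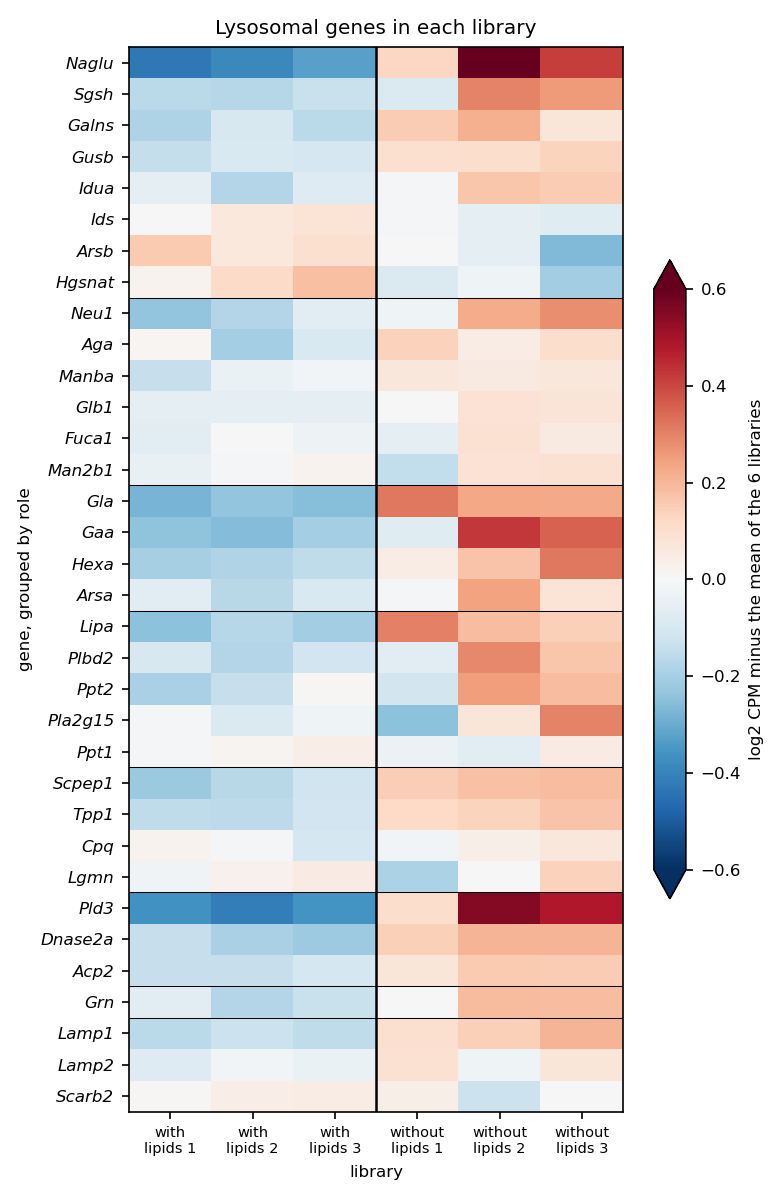
Log2 CPM of each gene minus its mean over the 6 libraries, with the libraries with lipids on the left of the line and those without on the right. Naglu and Pld3 show the widest contrast, library 1 without lipids is paler than its replicates for Naglu, Gaa and Pld3, and Hgsnat and Arsb run the other way.

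The cells carried the macrophage genes Adgre1, Csf1r and Lyz2 at high levels. The summed CPM of 8 macrophage markers ran between 29182 and 29539 with lipids and between 29500 and 34377 without, with 2 markers higher (Itgam and Fcgr1) and 1 lower (Cd68, itself a lysosomal glycoprotein gene). Markers of neutrophils, T cells, dendritic cells, epithelial cells, erythroid cells and mast cells each summed to at most 1.40 CPM in any library, and Ly6g, Cd3e, Krt8 and Krt18 were at 0 in all 6. Of 5 platelet markers, the 2 that could be tested, Pf4 and Ppbp, were higher with lipids (sum 416 to 431 CPM with lipids, 222 to 258 CPM without), 2 of 4 tested osteoclast markers, Acp5 and Ctsk, which also encode lysosomal enzymes, were lower (19.9 to 26.8 CPM with lipids, 25.9 to 34.6 CPM without, with Calcr at 0), and 1 of 5 stromal markers was lower (114 to 122 CPM with lipids, 118 to 162 CPM without). B cell markers summed to at most 31.3 CPM with lipids and 33.7 CPM without, and neither tested marker passed. The part of these cells in the results was not tested, and in bulk RNA fewer cells of a type and less RNA per cell cannot be told apart.

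The sequences around the RefSeq gene starts are shown because the E-box is the known element of many lysosomal genes. RefSeq windows of 250 bases before to 50 bases after the start were searched on both strands for CACGTG, for its 8-base form TCACGTGA and for the 10-base form with a further G before and C after it; each reads the same on both strands, and each longer form holds the shorter. CACGTG was found for 8 of 29 members (27.6%) and for 1146 of 9612 tested genes with a window (11.9%). TCACGTGA was found for 1 of 29 members (3.45%), against 2.3% of those genes, and the 10-base form for 0 of 29, against 0.853%. Galns, Hgsnat, Aga, Plbd2 and Cpq had no entry. Among genes with a window in the lists described further below, CACGTG was found for 43.8% of tagging and sorting genes and 40% of cathepsins. They were 28.6% for V-ATPase subunits, 13.8% for other lysosomal hydrolases and membrane proteins, 10% for genes of N-glycan assembly and 0% for MiT/TFE factors.

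The windows of Gla and Lamp1 held more than 1 match. Gla had TCACGTGA at both of its matches, the first bases of the CACGTG cores lying 227 and 194 bases before the start. Lamp1 had 4 CACGTG matches, with first bases at 61, 45, 28 and 15 bases before the start, and Gaa had 1 at 140 bases. These distances are from the RefSeq start, and the outermost GENCODE starts of Gla and Gaa lie nearer to their matches. The stretches below end where the outermost GENCODE transcript of each gene begins, and capitals mark the matches; they lie at chrX:134601126-134601255 (minus strand) for Gla, chr8:13158911-13159160 (plus strand) for Lamp1 and chr11:119267713-119267886 (plus strand) for Gaa.
Gla: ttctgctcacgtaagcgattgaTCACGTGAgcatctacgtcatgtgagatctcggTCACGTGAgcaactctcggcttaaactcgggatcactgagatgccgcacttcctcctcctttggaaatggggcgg
Lamp1: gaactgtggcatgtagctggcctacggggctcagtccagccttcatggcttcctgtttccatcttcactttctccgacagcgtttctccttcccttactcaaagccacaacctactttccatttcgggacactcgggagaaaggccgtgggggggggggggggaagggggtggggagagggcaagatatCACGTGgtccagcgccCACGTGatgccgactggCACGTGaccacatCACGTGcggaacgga
Gaa: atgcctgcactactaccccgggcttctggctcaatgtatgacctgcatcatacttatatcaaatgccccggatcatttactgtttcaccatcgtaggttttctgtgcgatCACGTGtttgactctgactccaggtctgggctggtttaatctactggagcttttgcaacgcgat

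For 3 further genes with 1 match, 30 bases around it are shown, so that members on either side of the threshold can be compared. They lie at chr11:101070009-101070038 (plus strand) for Naglu, chr11:119355522-119355551 (minus strand) for Sgsh and chr9:114401018-114401047 (plus strand) for Glb1. The outermost GENCODE start of Naglu, at 101070012, lies before its match, so that match is inside the annotated gene. The start of Sgsh, at 119355536, lies within its match, and that of Glb1 lies after its match.
Naglu: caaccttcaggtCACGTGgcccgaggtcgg
Sgsh: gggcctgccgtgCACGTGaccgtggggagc
Glb1: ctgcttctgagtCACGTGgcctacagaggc

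Naglu and Glb1 shared the 11 bases gtCACGTGgcc at the match. Naglu had the lowest log2 fold change of the 34 genes (-0.77, SE 0.10) and Glb1 did not pass the test (-0.11, SE 0.055, edgeR adjusted p = 0.222). The 8 members with a CACGTG match had a median log2 fold change of -0.31 and 5 of them were lower. The 21 without a match had a median of -0.22 and 10 were lower, where 6.87% of all tested genes were lower. The difference between members with and without a match was not tested. The matches not printed were that of Arsa and that in the second of the windows listed for Lgmn. These counts describe letters in a window and not binding.

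**Figure D3:**
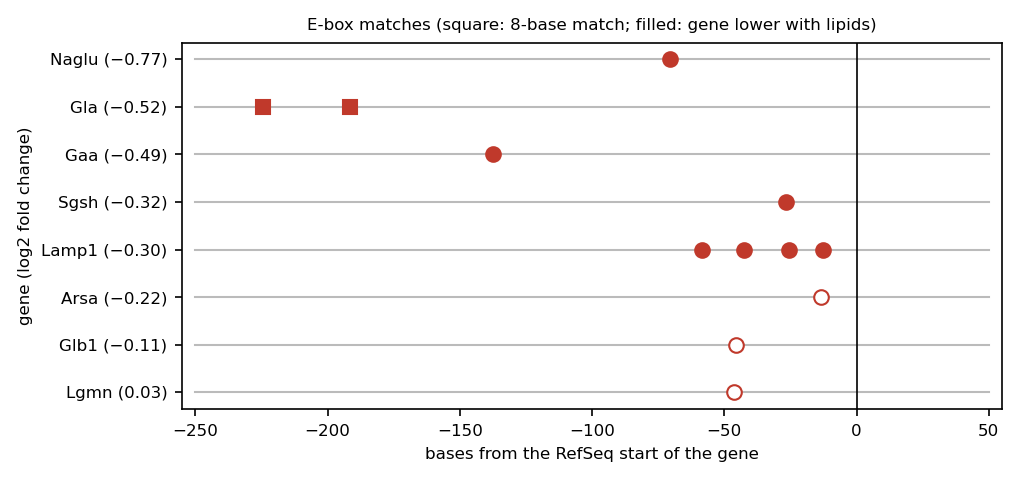
Position of each CACGTG match in bases from the RefSeq start, 1 row per gene ordered by log2 fold change; squares mark the 8-base form, and filled symbols genes that were lower with lipids. Gla has 2 squares, at 227 and 194 bases before the RefSeq start, and Lamp1 has 4 matches within 61 bases of it.

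Enzymes that take apart glycosaminoglycans, the long sulphated sugar chains of the cell surface and matrix, included the lowest and the highest log2 fold change of the set. Of 8 such genes, Naglu, Sgsh, Galns and Gusb were lower with lipids and 0 were higher by edgeR, beside 6.87% and 4.58% of all genes. Differences between sets of genes grouped by role were not tested. The 3 genes with positive values, Hgsnat, Arsb and Ids, did not pass the test; their CPM lay above those of every library without lipids, as for 14.7% of all genes. Naglu (chr11:101070012-101077672), which removes N-acetylglucosamine from heparan sulphate, had 67.8, 69.8 and 72.6 CPM with lipids, against 99.5, 138 and 121 CPM without. The groups were well apart, and library 1 without lipids was the nearest to the cells with lipids. In edgeR the difference on the log2 scale was -0.77 (SE 0.10, adjusted p = 0.000778).

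Hgsnat (chr8:25944453-25976753) encodes the membrane acetyltransferase that prepares the sugar which Naglu then removes. Its CPM was 199, 212 and 222 with lipids, against 184, 192 and 170 without. The groups did not overlap, but the difference of 0.21 (SE 0.067) did not pass edgeR's test (adjusted p = 0.0647). With DESeq2 the adjusted p was 0.0431, and over 16 other fits and scalings it ran between 0.016 and 0.262. Set against each other in the same libraries, Hgsnat exceeded Naglu in CPM 2.93, 3.04 and 3.06 times with lipids and 1.85, 1.39 and 1.40 times without. The ratio averaged 3.01 ± 0.067 with lipids and 1.54 ± 0.26 without (SD, n = 3 each), a pair picked after its values were seen.

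Sgsh, the sulphatase that removes the N-linked sulphate of heparan sulphate, had 72.6, 72.2 and 74.0 CPM with lipids and 76.5, 99.8 and 96.9 CPM without. Its call lay just inside the threshold (log2 fold change -0.32, SE 0.091, edgeR adjusted p = 0.0457) and was lost with limma-voom (adjusted p = 0.0547) and in 5 of the 6 fits that left out a library, all but the fit without library 1 of the group without lipids. Galns, a sulphatase for keratan and chondroitin sulphate, had 45.6, 48.5 and 46.4 CPM with lipids and 57.6, 60.1 and 54.4 CPM without (-0.29, SE 0.066). Gusb, beta-glucuronidase, was the most abundant of the 8 genes by TPM and had 705, 731 and 726 CPM with lipids and 833, 838 and 855 CPM without. The change in Gusb was small beside that of Naglu but exceeded the spread of its replicates (-0.22, SE 0.051, edgeR adjusted p = 0.0178), and its call was lost when any library with lipids or library 2 without lipids was left out, as was that of Galns (edgeR adjusted p = 0.0169 with all libraries).

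Arsb, which removes sulphate from dermatan sulphate, had 37.6, 35.3 and 36.1 CPM with lipids and 33.8, 32.5 and 28.1 CPM without. Ids, the iduronate sulphatase that starts heparan and dermatan sulphate breakdown, had 188, 195 and 198 CPM with lipids and 186, 180 and 178 CPM without. In both genes the groups were separate but close, and neither passed edgeR's test (Arsb 0.21, SE 0.083, adjusted p = 0.136; Ids 0.096, SE 0.055, adjusted p = 0.292). Idua, which removes the iduronic acid that Ids has freed of sulphate, was at -0.21 (SE 0.069, edgeR adjusted p = 0.0779) and passed when library 1 without lipids was left out (0.00415).

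Of 4 genes placed under the breakdown of glycolipids and glycogen, 3 were lower with lipids, beside 6.87% of all genes. Gla (chrX:134588149-134601125) encodes alpha-galactosidase A, the enzyme missing in Fabry disease, and its E-boxes are printed above. It had 203, 209 and 206 CPM with lipids, against 307, 290 and 289 CPM without. Library 1 without lipids was here the highest, in contrast to Naglu, and Gla, at -0.52 (SE 0.054), had the lowest adjusted p of the 34 genes in edgeR (0.000166). Gaa, the acid glucosidase that degrades glycogen, had 70.0, 69.2 and 71.8 CPM with lipids and 78.7, 111 and 106 CPM without. Its change of -0.49 (SE 0.11, edgeR adjusted p = 0.0155) was carried by libraries 2 and 3 without lipids, and the call was lost without library 1 or 2 of the group with lipids or library 2 of the other group.

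Hexa, the alpha subunit of the hexosaminidase that acts on GM2 ganglioside, was among the most abundant members. Its CPM was 941, 953 and 971 with lipids and 1116, 1215 and 1347 without, so that the libraries without lipids were both higher and more widely spread. The change in Hexa was -0.36 (SE 0.070, edgeR adjusted p = 0.0074), and its call was lost without library 1 with lipids (0.0503). Arsa, the sulphatase for sulphatide, was at -0.22 (SE 0.077, edgeR adjusted p = 0.0985) and passed when library 1 without lipids was left out (0.00745).

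Among 6 genes for the trimming of glycoproteins and oligosaccharides, Neu1 alone passed the test and was lower, beside 6.87% of all genes. Neu1, the sialidase that removes terminal sialic acid, had 92.8, 96.7 and 104 CPM with lipids and 107, 127 and 132 CPM without. The highest library with lipids came close to library 1 without, and the change of -0.32 (SE 0.083, edgeR adjusted p = 0.0301) was lost in all 6 leave-one-out fits but that without library 1 of the group without lipids. Glb1, beta-galactosidase, Manba, beta-mannosidase, and Aga, which cuts the bond between asparagine and the sugar chain, had values of -0.11, -0.13 and -0.19. Their groups did not overlap, as for 15.8% of all tested genes in that direction. Fuca1, alpha-fucosidase, was at -0.061 (SE 0.059) and Man2b1, alpha-mannosidase, at -0.026 (SE 0.070). Both changed sign with library totals alone, to 0.016 and 0.051. The adjusted p-values of these 5 genes in edgeR ran between 0.147 and 0.849.

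Of 5 genes that act on lipids and acyl chains, 1, Lipa, was lower with lipids, beside 6.87% of all genes. Lipa encodes lysosomal acid lipase, which frees cholesterol and fatty acids from the esters that lipoproteins bring in. It had 1951, 2058 and 2003 CPM with lipids, against 2860, 2631 and 2556 CPM without. All 3 libraries without lipids were higher, and library 1 was the highest of them. Lipa was at -0.42 (SE 0.061, edgeR adjusted p = 0.0014), and passed in all 16 other fits and scalings at that threshold, although not in the test against a 1.2-fold change.

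Plbd2, a member of the phospholipase B-like family, lay just outside the threshold (log2 fold change -0.26, SE 0.083, edgeR adjusted p = 0.0652). It had 143, 136 and 141 CPM with lipids and 146, 187 and 172 CPM without, and passed in 6 of 16 other fits, DESeq2 (0.044) among them, over a range of 0.000408 to 0.246. Pla2g15, an acid phospholipase, had 130, 124 and 129 CPM with lipids, inside the wide spread of 111, 138 and 161 CPM without. Its value was -0.10 (SE 0.11), changed sign without library 3 of the group without lipids and passed without library 1 of that group (0.0217). Ppt1, a thioesterase that removes palmitate from proteins, had 204, 208 and 211 CPM with lipids and 200, 196 and 212 CPM without, with overlapping groups (0.032, SE 0.056). Ppt1 shares 129 exon bases with Cap1 on the other strand, which held 149890 counts over the 6 libraries against 26549, so its value is uncertain if strand was ignored in counting. Ppt2, a related thioesterase, was at -0.22 (SE 0.10, edgeR adjusted p = 0.193) and also passed without library 1 of the group without lipids (0.0071).

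Of 4 peptidases outside the cathepsin family, Tpp1 and Scpep1 were lower with lipids, beside 6.87% of all genes. Tpp1, which cuts tripeptides from protein ends, had 403, 402 and 414 CPM with lipids and 487, 493 and 505 CPM without. Scpep1, a serine carboxypeptidase-like protein, had 296, 308 and 317 CPM with lipids and 382, 389 and 393 CPM without. Both pairs of groups were separated by far more than their spread, at -0.28 for Tpp1 (SE 0.052, edgeR adjusted p = 0.00518) and -0.34 for Scpep1 (SE 0.053, edgeR adjusted p = 0.00234). The call for Tpp1 was lost without library 2 of the group with lipids (adjusted p = 0.0540). Lgmn, legumain, which cuts after asparagine and processes antigens and other lysosomal enzymes, did not follow them. It had 2132, 2204 and 2237 CPM with lipids and 1896, 2165 and 2378 CPM without, so the groups overlapped fully (0.030, SE 0.078, edgeR adjusted p = 0.847). Cpq, a secreted and lysosomal carboxypeptidase, was at -0.059 (SE 0.068, edgeR adjusted p = 0.633).

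All 3 enzymes that act on nucleic acids or phosphate esters were lower with lipids, beside 6.87% of all genes. Pld3 (chr7:27532000-27553218), an exonuclease of the lysosome that degrades single-stranded nucleic acids, had 259, 249 and 259 CPM with lipids, against 357, 487 and 464 CPM without. Its change of -0.77 (SE 0.098, edgeR adjusted p = 0.000626) was close to that of Naglu, and both showed the same step between library 1 and the other libraries without lipids. Dnase2a, the acid DNase that digests engulfed DNA, had 186, 179 and 176 CPM with lipids and 226, 236 and 236 CPM without (-0.37, SE 0.054). Acp2, lysosomal acid phosphatase, had 246, 245 and 251 CPM with lipids and 285, 301 and 301 CPM without (-0.26, SE 0.054, edgeR adjusted p = 0.0109). Replicates of both genes lay close together in each group, and the call for Acp2 was lost when any library with lipids was left out, while that for Dnase2a (edgeR adjusted p = 0.00163) was kept in all 6 such fits. Ddb2, which shares exon bases with Acp2 on the other strand, held 654 counts against 34829.

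Progranulin and Lamp1 were, with Lgmn, the most abundant of the set by TPM. Grn, whose product is cut into granulins in the lysosome, had 2590, 2406 and 2479 CPM with lipids and 2723, 3100 and 3086 CPM without. The change was -0.25 (SE 0.066, edgeR adjusted p = 0.0322), near the threshold, and it was lost in all leave-one-out fits but that without library 1 of the group without lipids. Lamp1 (chr8:13159161-13175338), with its 4 E-boxes, had 2448, 2507 and 2465 CPM with lipids, against 2929, 3028 and 3157 CPM without. These groups were far apart (-0.30, SE 0.056, edgeR adjusted p = 0.00619), although the gene did not pass without library 3 of the group with lipids (0.0507).

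Lamp2, which is also needed for the uptake of proteins into lysosomes during autophagy, had 873, 911 and 896 CPM with lipids and 984, 905 and 968 CPM without. Scarb2, or LIMP-2, which carries the enzyme glucocerebrosidase to the lysosome, had 219, 224 and 225 CPM with lipids and 223, 199 and 218 CPM without. Both genes had overlapping groups and neither passed the test, Lamp2 at -0.092 (SE 0.056, edgeR adjusted p = 0.329) and Scarb2 at 0.059 (SE 0.060, edgeR adjusted p = 0.579). Lamp2 was among the 21 members without CACGTG in their window, of which 10 were lower, beside 6.87% of all genes. Any link between the matches and the changes was not tested. Lamp2 passed after the correction for GC content and length (-0.19, edgeR adjusted p = 0.0198). In the same libraries Lamp1 exceeded Lamp2 in CPM 2.80, 2.75 and 2.75 times with lipids and 2.98, 3.35 and 3.26 times without, a ratio of 2.77 ± 0.031 with lipids and 3.19 ± 0.19 without (SD, n = 3 each), again a pair picked after its values were seen.

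Levels per unit of merged exon length put 5 genes well above the rest. With lipids the order by TPM was Lgmn at 3405 ± 98.0, Lamp1 at 3337 ± 49.6, Grn at 2589 ± 88.3, Hexa at 1727 ± 33.8 and Lipa at 1067 ± 31.5 (SD, n = 3). Without lipids it was Lamp1 at 3804 ± 88.1, Lgmn at 3092 ± 295, Grn at 2862 ± 151, Hexa at 2056 ± 162 and Lipa at 1327 ± 106 (SD, n = 3). Lgmn and Lamp1 lay within their spread of each other with lipids, as did Lgmn and Grn without. Gusb followed in both groups, and the lowest were Ppt2, Cpq and Arsb, in that order, with Arsb at 21.7 ± 0.62 TPM with lipids and 17.5 ± 1.9 TPM without (SD, n = 3 each). Across the 34 genes the log2 fold change was only weakly ordered by mean TPM (Spearman's rho -0.19) and by exon length (0.24), correlations across genes, which are not independent replicates.

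**Figure D4:**
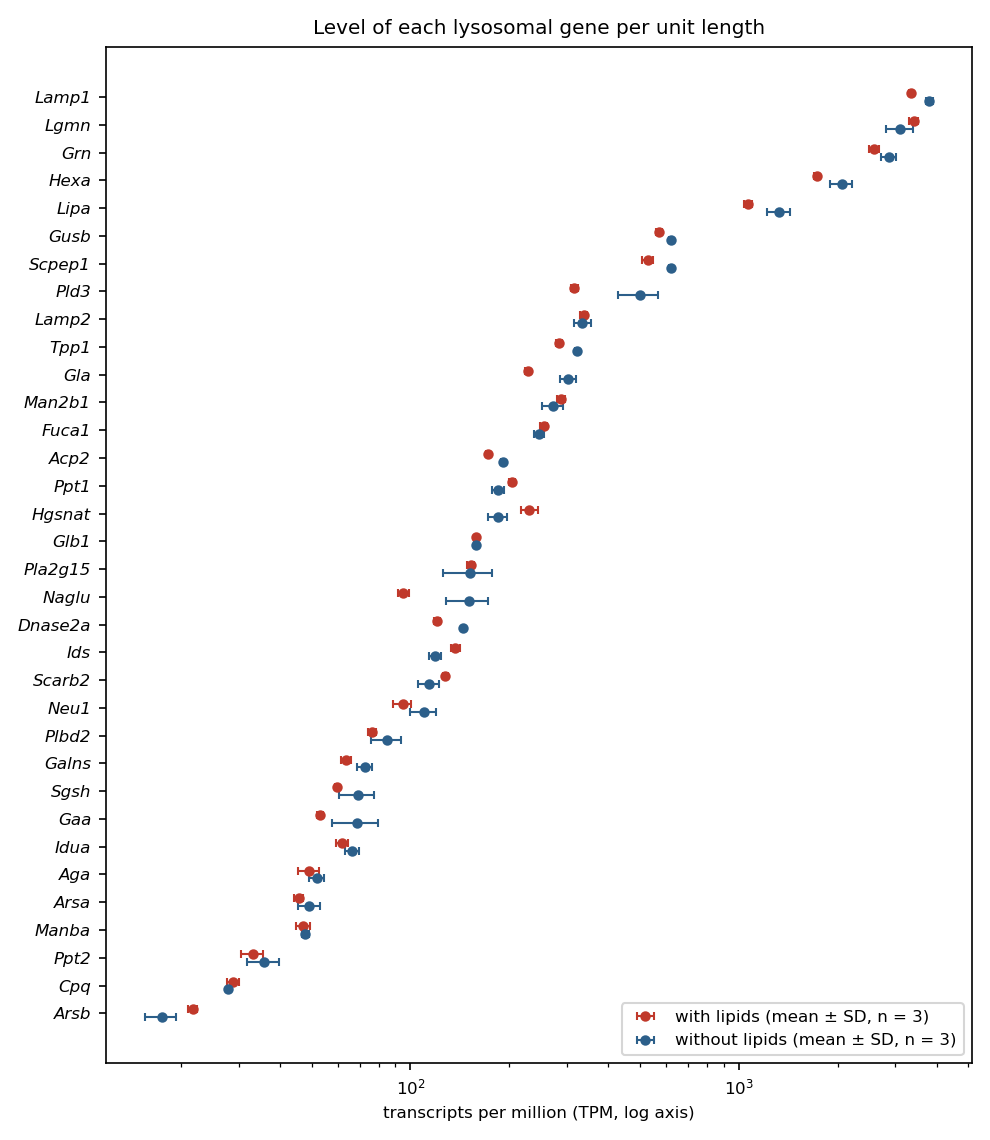
Mean TPM of each gene with its SD over 3 libraries, on a log axis, with lipids and without. Lamp1 and Lgmn exchange the top place between the groups, and Arsb at 21.7 TPM with lipids and 17.5 TPM without is the lowest.

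GC content moved with the change; its part in the result was tested only by the correction below. Across the 34 genes the Spearman's rho between log2 fold change and the GC content of the longest transcript was -0.46, and across 12720 tested genes it was -0.29; the median GC content was 52.0% for the 34 genes and 49.3% for all tested. Naglu (59.8%), Gaa (59.5%) and Pld3 (58.5%) were at the high end and Lamp2 (38.6%), Cpq (40.6%) and Ids (41.4%) at the low end. After a correction of each library for GC content and length, rho was -0.23 among the 34 genes, and 20 were lower and 1 higher, beside 9.51% and 6.43% of all genes. Of the 16 lower genes 15 kept their call, all but Galns, and Aga, Idua, Lamp2, Manba and Plbd2 joined them.

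Other lists of lysosomal and related genes are described in the same way. Over all tested genes, 6.87% were lower and 4.58% higher in edgeR. The shares were 7.54% and 5.32% in DESeq2, and 6.62% and 4.7% in limma-voom. At an unadjusted p under 0.05 in edgeR they were 14.5% and 12.1%. Of 22 genes for mannose-6-phosphate tagging and sorting, 5 were lower and 0 higher (median -0.11). Among them were Igf2r, the large mannose-6-phosphate receptor (-0.62), Gnptab, the phosphotransferase that begins the tag (-0.47), the sorting adaptor Gga2 (-0.38) and Cln8 (-0.35), with edgeR adjusted p-values between 0.000163 and 0.00696. M6pr, the small receptor, was at -0.074 (SE 0.061), and the difference between these receptors was not tested. At an unadjusted p under 0.05, 9 genes of this list were lower and 1 higher, and DESeq2 and limma-voom each called 5 lower and 0 higher. Of 34 tested hydrolases and membrane proteins outside the 34 members, 15 were lower, of which the hyaluronidase Hyal1 (-0.97), the dipeptidyl peptidase Dpp7 (-0.61) and the tetraspanin Cd63 (-0.56) had the smallest p, and 2 were higher, Cd164 (0.45) and Smpdl3b (0.44); the list median was -0.25.

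Of 12 tested cathepsins 6 were lower and 1 higher, beside 6.87% and 4.58% of all genes. The higher gene was Ctsc, which activates granule proteases, at 0.95 (SE 0.065, edgeR adjusted p = 1.19e-05). Its value lay above that of every one of the 34 genes. Of the lower cathepsins, Ctsz (-0.83), Ctsb (-0.53) and Ctsd (-0.48) had the smallest p. Ctsz and Ctsk (-0.90) lay below every one of the 34 genes. Of 18 tested subunits of the V-ATPase, the proton pump, 13 were lower and 0 higher in edgeR, DESeq2 and limma-voom. Beside these stood 6.62% to 7.54% and 4.58% to 5.32% of all genes. The subunits with the smallest p in edgeR were Atp6v0d2 (-1.51), Atp6v1g1 (-0.50) and Atp6v1c1 (-0.57). At an unadjusted p under 0.05 in edgeR the counts were 15 and 0, beside 14.5% and 12.1% of all genes. The medians of these lists were -0.33 and -0.31, against -0.22 for the 34 genes, and the difference between lists was not tested. Of the 4 MiT/TFE factors 0 passed edgeR's test. In that test Tfeb was at -0.46 (SE 0.16, adjusted p = 0.0832) and Tfec at 0.24 (SE 0.084, adjusted p = 0.0895). At an unadjusted p under 0.05 in edgeR there was 1 in each direction, beside 14.5% and 12.1% of all genes. DESeq2 called 1 lower and limma-voom 0. The last list held 25 genes of N-glycan assembly and transfer in the endoplasmic reticulum, the machinery that glycosylates the hydrolases (median -0.026). Of these, 0 passed in edgeR or limma-voom, and 1 was lower in DESeq2. At an unadjusted p under 0.05 in edgeR, 3 were lower and 0 higher, beside 14.5% and 12.1% of all genes.

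**Figure D5:**
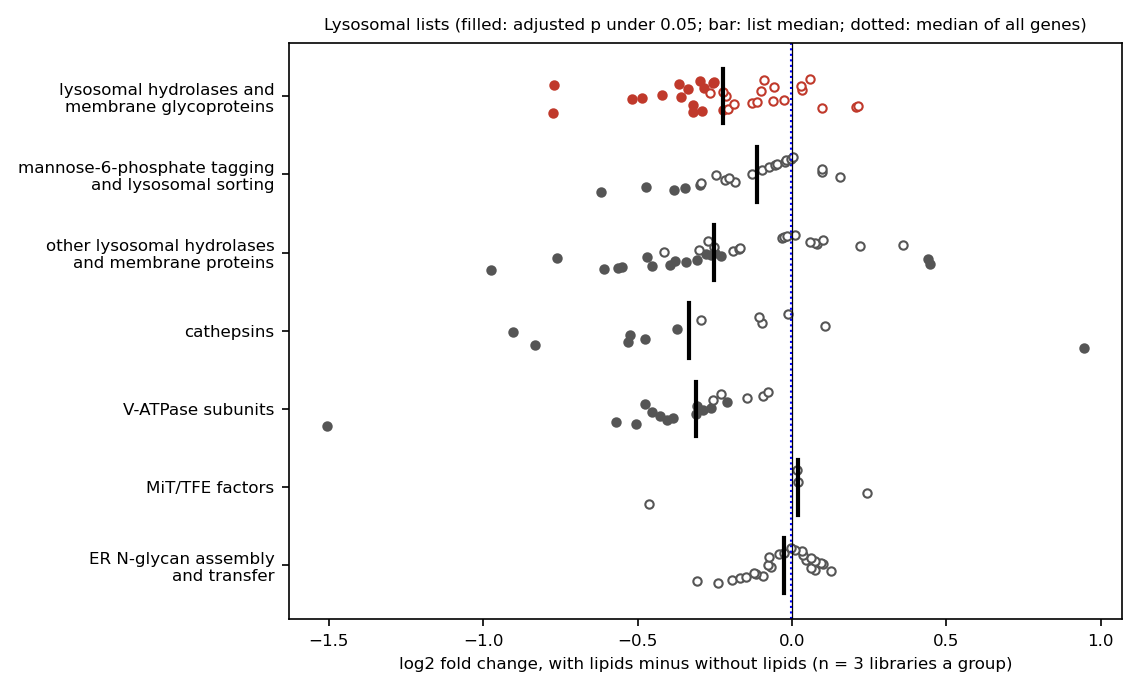
Log2 fold change of every tested gene in the set of 34 and in 6 further lists, with filled points for adjusted p under 0.05, a bar at each list's median and a dotted line at the median of all tested genes. The set of 34 centres at -0.22, V-ATPase subunits at -0.31 and the endoplasmic reticulum list at -0.026.

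Of the 34 members, 15 share exon bases with other annotated genes; the library kit keeps strand, but the strand setting of the counting is unknown here. Glb1 shares 165 bases with Tmppe on the same strand, which held 8055 counts over the 6 libraries against 17653, and Idua shares 124 bases with Dgkq on the other strand, which held 2290 against 9989. Apart from these and Cap1, partners of members held at most 654 counts, except 2 that have no row in the count files used here.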

How the data were processed

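The authors deposited unnormalised read counts by Ensembl gene identifier, 1 file for each of 6 libraries made with a stranded mRNA kit. Per the submitters' processing notes, TopHat2 2.1.0, HTSeq, DESeq2 and GRCm38.p4 were used by the authors, with no step named for each; no source used here gives the strand setting of the counting or the annotation release. Groups came from the sample titles. Symbols, positions, exon lengths and GC content came from GENCODE M21 (GRCm38), which matched 46091 of 46603 identifiers.

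Genes were tested with edgeR 4.0.16 (quasi-likelihood F test, two-sided) in R 4.3.3 on the counts as deposited, after filterByExpr (minimum count 10, minimum total 15) and trimmed mean of M-values (TMM) factors, with Benjamini-Hochberg adjustment over all 12767 tested genes and a threshold of 0.05. The standard error (SE) of a log2 fold change was its size over the square root of F. CPM are counts scaled to library size and TMM factor. TPM carry no TMM factor and were computed from counts and the merged length of all annotated exons of a gene. That length can exceed the length of any single transcript, and the order by TPM depends on it. The steps were tested on simulated counts drawn from the kind of count model that edgeR fits. Those counts held no deviating library and no trend with GC content, so they cannot show how the steps fare with either. Whether replicates are separate mice or cultures is not labelled, and the spread behind each p-value may therefore be technical. Replicates differed by more than sampling noise, with a chi-square per degree of freedom of at least 2.65 in every pair, and all were kept. Library totals ran between 19429022 and 25323053 counts, and the upper limit behind a gene at 0 (3 counts, counting error only) was 0.115 to 0.159 CPM.

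The members, gene lists and alternatives were chosen with earlier results of these data known, so counts over them are descriptions and no list was tested as a set. CPM in every library is given for the 14 largest called changes, members above 0, membrane glycoproteins and members next to the threshold; Gusb, Pla2g15 and the ratios between members were added after their values were seen. Promoter windows came from RefSeq (GRCm38.p6), where 29 of 34 members had an entry. Alternatives were other scalings, filters, tools and thresholds, the replicate number as a block, a loess correction for GC content and length, and each library left out in turn.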

Additional observations from a re-analysis of the deposited data

How the results depend on the processing

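Across the 34 genes and all alternatives, 519 single-gene values kept their direction and side of the threshold, 59 lost the call, 25 gained it and 9 changed sign. All the sign changes were in genes that did not pass the test: Man2b1 reached 0.051, 0.0093 and 0.019 with library totals alone and without library 2 or 3 of the group without lipids (-0.096 without library 1), Fuca1 0.016 and Cpq 0.018 with library totals alone, Ppt1 -0.011 and -0.0094 with the GC and length correction without and with the block, Pla2g15 0.040 without library 3 of the group without lipids (-0.23 without library 1), and Lgmn -0.048 without library 1 of that group (0.11 without library 3). The cause was not tested.

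The median of the 34 genes was -0.15 with library totals alone, and between -0.27 and -0.20 when a library was left out. Lower members numbered 3 when tested against a 1.2-fold change, 9 at an adjusted p of 0.01, and 8 to 21 when a library was left out. Beside them stood 2.09%, 3.48% and 3.27% to 15.1% of all genes. Higher members numbered 2 with library totals alone, 1 each with no filter and with DESeq2, and 0 to 2 when a library was left out. Beside them stood 9.72%, 4.4%, 5.32% and 1.69% to 12% of all genes. With the GC and length correction 1 member was higher, with or without the block, beside 8.17% and 6.43% of all genes. Over all genes, 267 were lower and 114 higher against a 1.2-fold change, 444 and 216 at 0.01, 1353 and 1039 with block and correction together, and 423 to 1975 and 219 to 1566 when a library was left out; 1241 were higher with library totals alone and 1009 with no filter.

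Of all genes, 2.09% were lower and 0.893% higher against a 1.2-fold change. These shares were 3.48% and 1.69% at 0.01, and 4.67% and 9.72% with library totals alone. With no filter they were 5.42% and 4.4%, with DESeq2 7.54% and 5.32%, and with the block 7.34% and 5.6%. The correction gave 9.51% and 6.43%, and correction and block together 10.6% and 8.17%. When a library was left out, 3.27% to 15.1% were lower and 1.69% to 12% higher. For tagging and sorting genes, 1 was lower against a 1.2-fold change and 4 to 9 when a library was left out. Higher were 1 with library totals alone or the correction, 2 with correction and block, and 0 or 1 with a library left out. Of the other lysosomal genes 5 were lower and 0 higher against a 1.2-fold change, 9 and 1 at 0.01, and 8 to 19 lower and 1 or 2 higher when a library was left out. Cathepsins had 1 or 2 higher when a library was left out, and V-ATPase subunits had 3 lower against a 1.2-fold change and 8 to 16 when a library was left out. Of the MiT/TFE factors 1 was lower with no filter, DESeq2, the block, the correction, or both, 1 was higher with library totals alone, and 0 or 1 in either direction when a library was left out. Among the endoplasmic reticulum genes 2 were lower with no filter, 1 with DESeq2 or the correction, with or without the block, and 0 to 2 when a library was left out, which also gave 0 or 1 higher.

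With the replicate number as a block, 17 members were lower (Plbd2 joined the 16) and 0 higher, beside 7.34% and 5.6% of all genes, and it changed no other member's call. The labels do not say that the numbers pair the libraries: deviations of same-numbered libraries correlated at -0.014, -0.087 and 0.18, and libraries 1 and 2 with lipids did not correlate best with their own number.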
